A study of Mus musculus with 6 samples.

Results

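The ATP-sensitive potassium channel is built from pore subunits and regulatory subunits, encoded in the mouse by Kcnj11, Kcnj8, Abcc8 and Abcc9. The members were taken as every probe set whose only annotated gene symbol is one of these names. This gave 4 probe sets, 1 for each gene, of 35557 on the array and of 21789 that carry exactly 1 symbol. Hearts of mice aged 8 weeks were compared on Affymetrix Gene 1.0 ST arrays, with 3 Ppif-/- hearts and 3 WT hearts and 1 array for each heart. Ppif-/- mice carry a knockout in all tissues of the gene for cyclophilin D, an isomerase of the mitochondrial matrix that favours the open state of the permeability transition pore. The label gives the strain of both groups as C57BL/6, and the knockout line reached it by backcrossing from a Sv129 background. No drug or surgery is named in the labels for either group. The series states that the mice were sampled at an age ahead of cardiac dysfunction.

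The channel links metabolism to the membrane potential. ATP closes the pore and magnesium-bound ADP, sensed by the regulatory subunit, opens it, so that an energy-starved cell loses potassium and its action potential shortens. In the ventricle of the mouse the sarcolemmal channel is formed mainly by Kcnj11 with the cardiac splice form of Abcc9, in mouse atria Abcc8 takes the regulatory place, and in vascular smooth muscle and pericytes Kcnj8 pairs with another splice form of Abcc9. Loss of Kcnj11 in mice removes the channel current of ventricular myocytes, and the channel takes part in the protection that brief ischaemia gives against a later, longer one.

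The values are deposited log2 values per probe set, with array medians between 6.03 and 6.11. Ppif was at or below 6.44 in each Ppif-/- heart and at or above 11.28 in each WT heart, as the labels require. The 7 cardiomyocyte markers listed for the check had genotype means between 12.66 and 13.79, close to the top of the array's range of 1.91 to 14.63. Precision is limited by the number of arrays, and p-values rest on a gene's spread between these numbered hearts, moderated by the spread of all probe sets tested. With 3 hearts in each group, the smallest p of an exact permutation test for 1 gene is 0.1 (two-sided), so the moderated fit of limma across 23410 probe sets with a symbol was used.

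Among the 4 subunits, Kcnj11 was lower in Ppif-/- hearts, to 59.5% of its WT level, and the other 3 overlapped between the genotypes. In that fit, 1 of the 4 subunits passed an adjusted p of 0.05, against 1.09% of all probe sets tested (0.461% lower and 0.624% higher in Ppif-/- hearts). The groups did not overlap for 1 of the 4, against 19.8% of all probe sets. The family was selected on earlier results of this same contrast, in which Kcnj11 stood among the lower transcripts, so these counts and the differences below are a description and carry no test.

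Kcnj11 encodes the pore subunit Kir6.2, which binds the ATP that closes the channel. Its log2 value was 8.95, 8.94 and 9.03 in the 3 Ppif-/- hearts and 9.73, 9.77 and 9.67 in the 3 WT hearts. Each Ppif-/- heart lay below each WT heart, with a gap of 0.64 between the nearest hearts of the 2 groups and a range of 0.08 and 0.10 within them. The means were 8.97 ± 0.05 in Ppif-/- and 9.72 ± 0.05 in WT hearts (SD, n = 3 each). The difference of -0.75 ± 0.07 (log2, SE of the fit) is a 1.68-fold lower level, with a 95% interval of 53.5% to 66.1% of WT. By the size of a decrease, Kcnj11 stood at place 67 of the 23410 probe sets tested. Heart tissue was measured in bulk, and in such samples fewer cells of a type and less RNA per cell cannot be told apart.

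Kcnj8 encodes the other pore subunit, Kir6.1, known from vascular smooth muscle and pericytes. It read 8.84, 9.08 and 9.06 in Ppif-/- hearts and 9.02, 8.96 and 9.03 in WT hearts on the log2 scale. Ppif-/- heart 1 was the lowest of the 6, and the other two Ppif-/- hearts were the highest. The difference was -0.0089 ± 0.083 (log2, SE), with a 95% interval of 87.0% to 113% of the WT level. The level of Kcnj11, 59.5% of WT, lies outside that interval, which is a description since the family was selected on this contrast.

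Abcc8 encodes the sulfonylurea receptor SUR1, the regulatory subunit of pancreatic beta cells and of mouse atria. Its log2 value was 8.49, 8.61 and 8.81 in Ppif-/- hearts and 8.55, 8.42 and 8.54 in WT hearts. Ppif-/- heart 1 lay within the WT range and the other two Ppif-/- hearts lay above it. The mean difference was 0.13 ± 0.09 (log2, SE), which allows a level between 94.2% and 127% of WT.

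Abcc9 encodes SUR2, the regulatory subunit of ventricular and vascular channels. Its values were 11.84, 11.88 and 11.93 in Ppif-/- hearts and 12.05, 11.89 and 12.07 in WT hearts (log2). WT heart 2 lay among the Ppif-/- hearts, and the other two WT hearts lay above all of them. The difference of -0.12 ± 0.07 (log2, SE) has a 95% interval of 81.8% to 104% of the WT level. A single probe set stands for the gene, so its splice forms SUR2A and SUR2B were not resolved here.

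**Figure D1:**
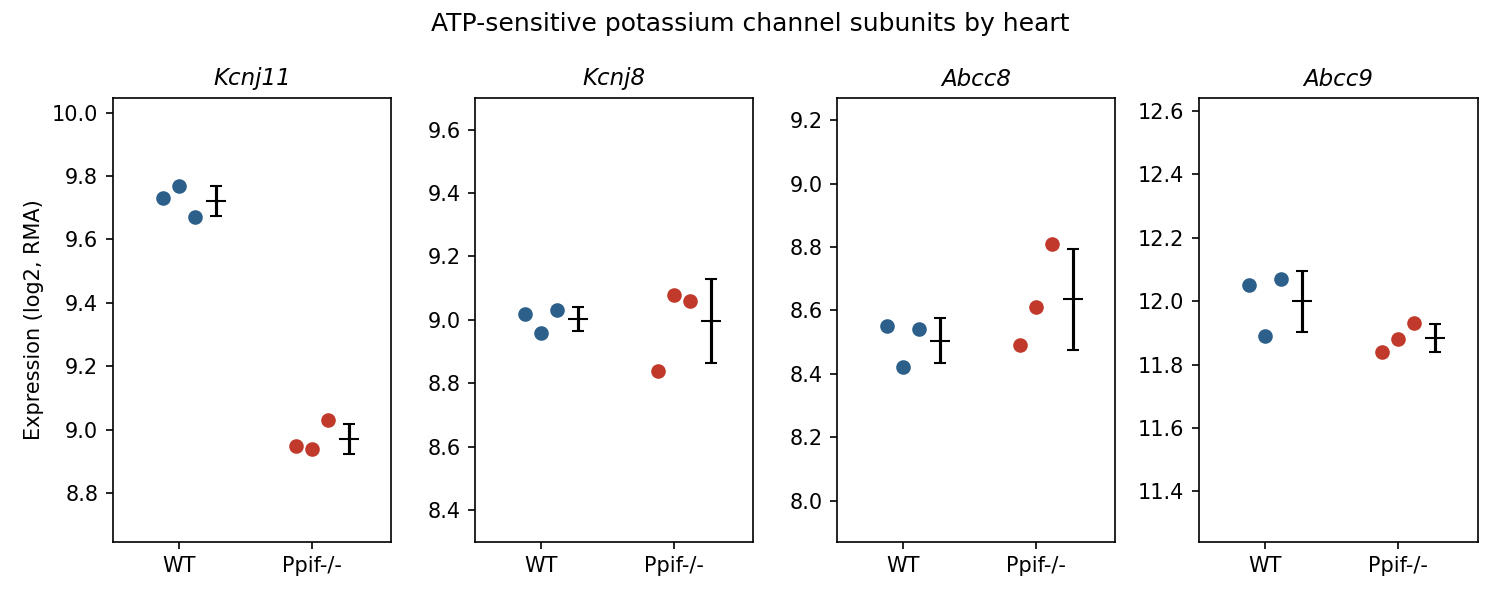
Log2 value of each channel subunit in each heart, with WT hearts in blue and Ppif-/- hearts in red. Black bars give the mean and SD of 3 hearts, each panel spans the same height on the log2 scale, and the groups are separate for Kcnj11 (8.94 to 9.03 against 9.67 to 9.77) and overlap for Kcnj8, Abcc8 and Abcc9.

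The shift of Kcnj11 was also set against that of each partner, as a description. With each gene measured from its own WT mean, Kcnj11 lay 0.62 to 0.66 log2 units below its ventricular partner Abcc9 in the 3 Ppif-/- hearts, and the same measure ran from -0.12 to 0.16 in the WT hearts. Against Kcnj8 the distance in Ppif-/- hearts was -0.86 to -0.61, and against Abcc8 it was -0.996 to -0.76. These are differences of shifts, not of levels, because probe sets of different genes are not on a common scale.

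Among the 21788 other probe sets with 1 symbol, those most like Kcnj11 were found by the Euclidean distance of their log2 profiles over the 6 hearts, after subtraction of the WT mean. The nearest was Cdh19, a cadherin (distance 0.17, difference -0.73), followed by Ocel1 (0.18, -0.81). The next was Itpr2, an inositol trisphosphate receptor of the endoplasmic reticulum (0.19, -0.81). Myl9, the regulatory myosin light chain of smooth muscle (0.19, -0.72), and one probe set of D730005E14Rik (0.20, -0.75) completed the 5. The other probe set of D730005E14Rik, which is the brighter one, differed by -0.16. The median distance over all these probe sets was 1.32, and the partner subunits lay at 1.12 (Abcc9), 1.30 (Kcnj8) and 1.54 (Abcc8). Likeness here rests on 6 hearts and mostly on the step between the genotypes.

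**Figure D2:**
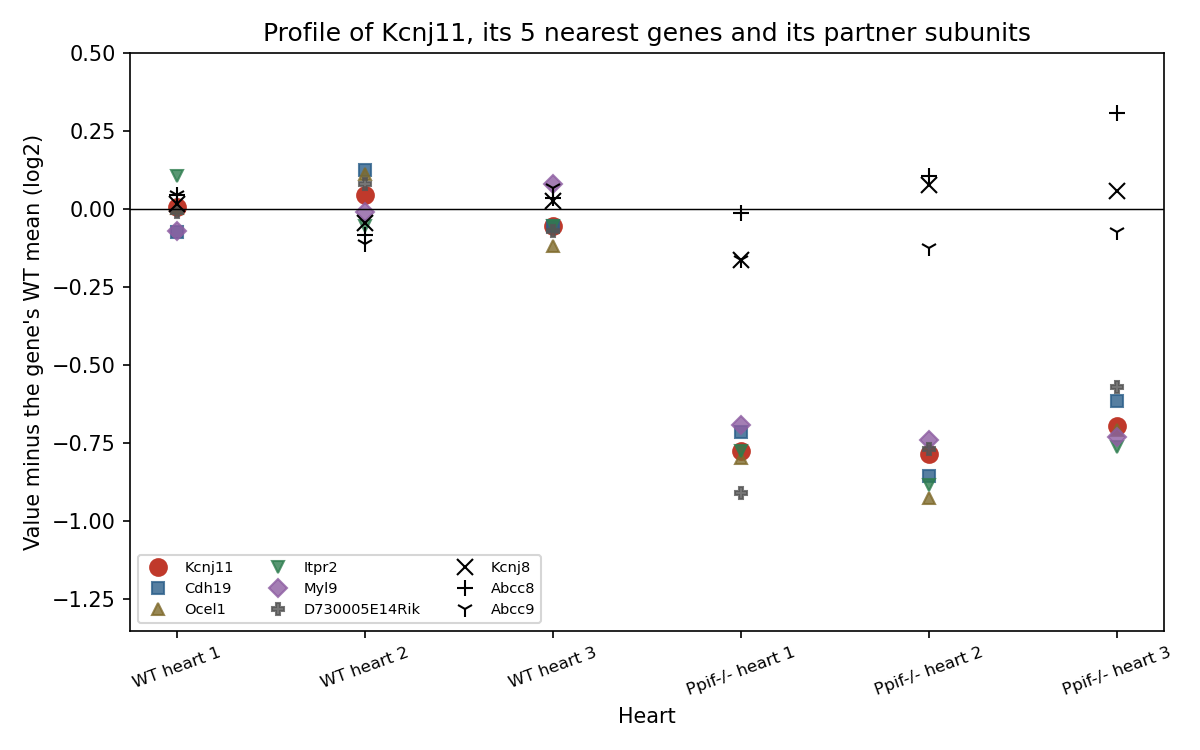
Log2 value minus the WT mean of the gene, in each of the 6 hearts, for Kcnj11 (red circles), the 5 genes with the nearest profile and the 3 partner subunits (black). Kcnj11 and its 5 nearest genes lie well below 0 in each Ppif-/- heart, and the partner subunits lie near 0.

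The 4 genes lie in 2 pairs. Kcnj11 and Abcc8 are direct neighbours on chromosome 7, and Kcnj8 and Abcc9 are direct neighbours on chromosome 6, each pair being 1 pore and 1 regulatory gene with no measured gene between them. The 10 nearest measured genes on each side of a pair were read in the same fit. Around Kcnj8 and Abcc9, 0 of 20 genes passed in limma, 1 had p under 0.05 before adjustment, and 3 (15%) did not overlap between the genotypes. The smallest p belonged to Gys2, the liver glycogen synthase, at -0.27 ± 0.09 from a low WT value of 3.81 (adjusted p = 0.24 in limma).

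Around Kcnj11 and Abcc8, 1 of 20 genes passed, 6 had an unadjusted p under 0.05, and 7 (35%) did not overlap. Over all probe sets tested, these shares were 1.09%, 12.9% and 19.8%. The gene that passed was Ush1c, next to Abcc8, which encodes the scaffold protein harmonin of inner ear hair cells. Ush1c read 7.59, 7.21 and 7.28 in Ppif-/- hearts and 6.28, 5.70 and 6.19 in WT hearts. All Ppif-/- hearts lay above all WT hearts, at a 2.47-fold higher level (1.31 ± 0.17 log2, adjusted p = 0.0117 in limma). That call was lost without Ppif-/- heart 3 (adjusted p = 0.0582 in limma) and with every probe set of the array in the test (0.0624).

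A split by side goes beyond the planned counts for each locus. On the Kcnj11 side, 0 of the 10 neighbours passed. Of these 10, 6 did not overlap, beside 19.8% of all probe sets tested, 5 of them lower in every Ppif-/- heart. These were Nomo1, the gene next to Kcnj11 (-0.28 ± 0.07), Grwd1 (-0.45 ± 0.09), Emp3 (-0.34 ± 0.09), Kdelr1 (-0.20 ± 0.07) and Tmem143 (-0.15 ± 0.08), named after their values were seen. With limma their adjusted p-values lay between 0.0779 (Grwd1) and 0.462 (Tmem143). Grwd1 passed among brighter probe sets (adjusted p = 0.0437 in limma), and with an intensity trend in the variance Grwd1 (0.0488) and Nomo1 (0.04) passed. Beyond Ush1c on the Abcc8 side, the other 9 genes overlapped.

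**Figure D3:**
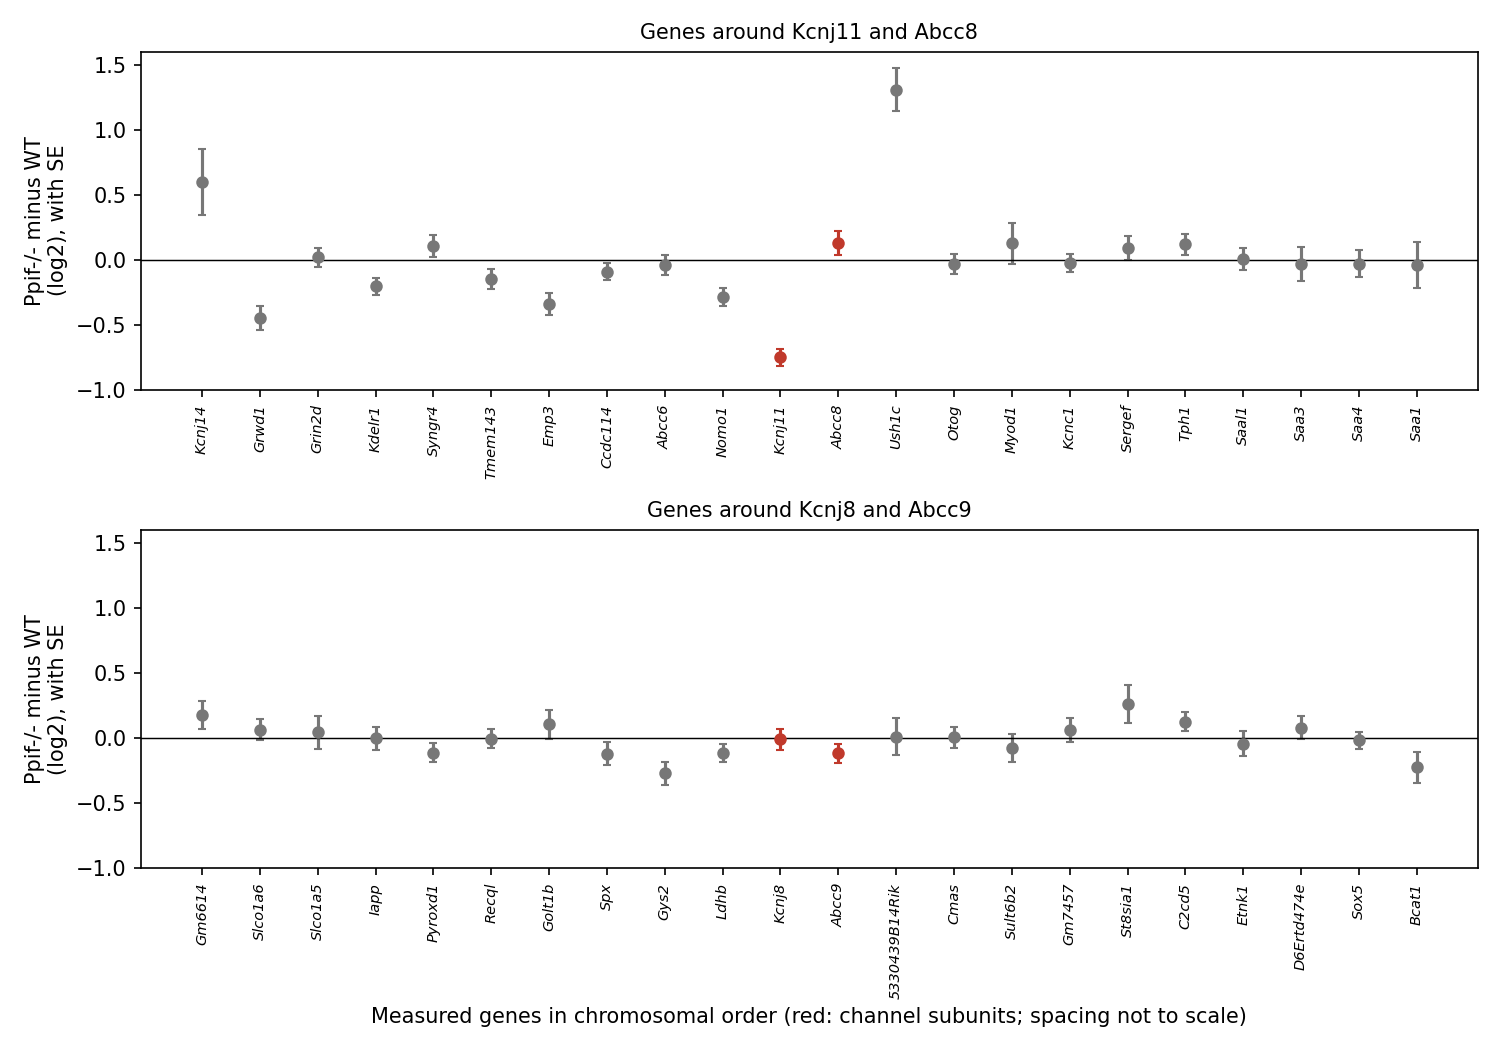
Difference between Ppif-/- and WT hearts (log2, bars: SE of the fit) for the 10 measured genes on each side of Kcnj11 and Abcc8 (upper panel) and of Kcnj8 and Abcc9 (lower panel), in chromosomal order. Channel subunits are in red, and Kcnj11 (-0.75) and Ush1c (1.31) stand farthest from 0 in the upper panel.

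The genes that share a family or a pathway with the channel were read from 8 lists. Of 113 listed genes 103 had a probe set of their own, and 2 of these passed (1.94%, 1 higher and 1 lower), beside 1.09% of all probe sets tested. Before adjustment, 18 had a p under 0.05, a level that 12.9% of all probe sets tested reached in this fit and against which such counts here and below are to be read. Their median difference was -0.0088, and that of all probe sets tested was -0.0023.

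Of 13 other inward rectifiers, the family of Kcnj11 and Kcnj8, 0 passed in limma, 2 had p under 0.05 before adjustment, and the median was 0.024. The 2 with the smallest p were both classical inward rectifiers. Kcnj12 read 7.31 to 7.35 in Ppif-/- and 7.03 to 7.23 in WT hearts (0.22 ± 0.07, adjusted p = 0.268 in limma). Kcnj14 read 6.94, 7.26 and 7.28 against 6.86, 5.92 and 6.93 (0.59 ± 0.25, adjusted p = 0.381), and WT heart 2 alone was far below the rest. Kcnj14 is also 1 of the neighbours of Kcnj11 above.

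Of 9 other ABCC genes, the family of the regulatory subunits, 0 passed in limma, 2 had p under 0.05 before adjustment, and the median was 0.025. The drug and nucleotide exporters Abcc10 (0.28 ± 0.08) and Abcc4 (-0.27 ± 0.09) had the smallest p and pointed in opposite directions (adjusted p = 0.179 and 0.23). A separate potassium channel sensitive to ATP has been described in the inner mitochondrial membrane, with Ccdc51 as its pore and Abcb8 as its regulatory subunit. Neither of these 2 passed, and the groups overlapped for both, with differences of -0.07 ± 0.08 for Ccdc51 and -0.13 ± 0.08 for Abcb8 (adjusted p = 0.788 and 0.543 in limma).

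Of 16 measured genes for other potassium and pacemaker channels of the heart, 1 rose, 0 fell and 4 had an unadjusted p under 0.05, with a median of -0.067. Kcna4, a pore subunit of the slowly recovering transient outward current, read 6.24, 6.57 and 6.43 in Ppif-/- hearts. In WT hearts Kcna4 read 5.81, 5.47 and 5.59, so that the groups did not overlap (1.73-fold higher, 0.79 ± 0.12 log2, adjusted p = 0.0238 in limma). The call of Kcna4 was lost without Ppif-/- heart 2 or 3 or WT heart 2 or 3 (adjusted p = 0.0727 to 0.107), with the replicate number as a block (0.0889) and with every probe set of the array (0.0904). Kcnq1, the pore of the slow delayed rectifier, was next by p (0.45 ± 0.15, adjusted p = 0.256).

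**Figure D4:**
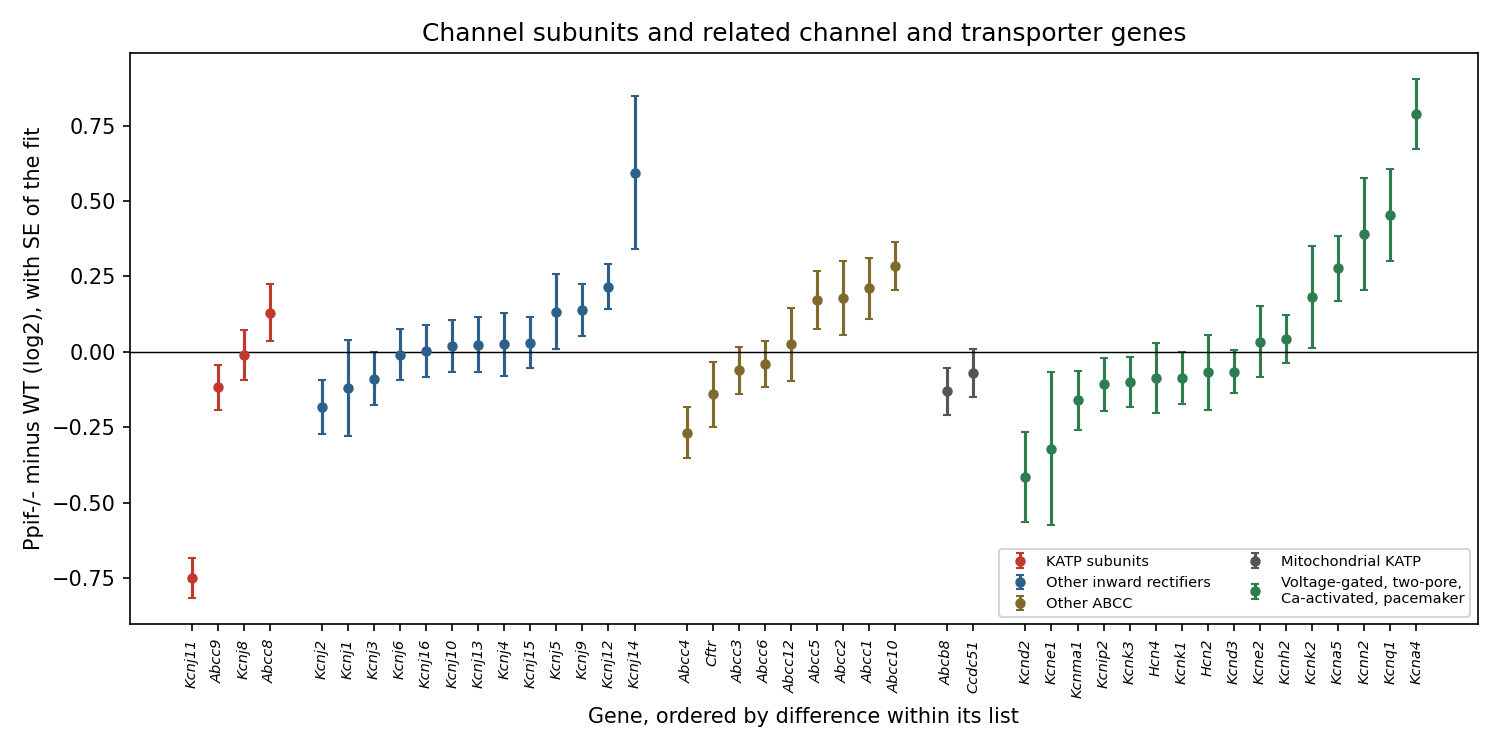
Difference between Ppif-/- and WT hearts (log2, bars: SE of the fit) for the 4 channel subunits and for the measured genes of 4 related lists, ordered by difference within each list. Kcnj11 (-0.75) lies below every gene plotted, and Kcna4 (0.79) and Kcnj14 (0.59, with a wide SE) lie at the top.

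Genes that supply the nucleotides the channel senses gave 0 calls among 19 measured, with 3 at an unadjusted p under 0.05 and a median of -0.0052. They include adenylate and creatine kinases, glycolytic enzymes and AMP-activated kinase subunits. Prkag2, the nucleotide-binding gamma subunit of AMP-activated kinase, was at 0.29 ± 0.09 and Ak3, the adenylate kinase of the mitochondrial matrix, at -0.19 ± 0.06 (adjusted p = 0.222 and 0.271 in limma). Of 18 genes for trafficking and anchoring, 0 passed and 2 had an unadjusted p under 0.05, with a median of -0.0015. Those 2 were Ehd1, which recycles membrane proteins from endosomes (-0.27 ± 0.07), and Stx1a, a SNARE protein that binds sulfonylurea receptors (0.28 ± 0.08), with adjusted p-values of 0.154 and 0.196.

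Of 14 measured genes for signalling onto the channel, 0 passed in limma and 1 had p under 0.05 before adjustment, with a median of 0.065. Pip5k1a, a kinase that makes the lipid PIP2 needed for open inward rectifiers, was at 0.17 ± 0.07 and Prkg1, the kinase activated by cyclic GMP, at 0.21 ± 0.09 (adjusted p = 0.352 and 0.387). Of 12 measured transcription factors, 0 rose, 1 fell and 4 had an unadjusted p under 0.05, with a median of -0.11. Arntl, the clock activator BMAL1, read 6.30, 7.39 and 6.64 in Ppif-/- hearts and 8.17, 8.22 and 8.18 in WT hearts. The groups were separate, with a wide spread among Ppif-/- hearts alone (-1.41 ± 0.24, adjusted p = 0.0418 in limma). The call of Arntl was lost with every probe set of the array (adjusted p = 0.141) and without any single heart other than Ppif-/- heart 2 (0.0639 to 0.159). Foxo4, a forkhead factor, was next by p at -0.28 ± 0.07 (adjusted p = 0.146).

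Since the subunits differ in the cells that carry them, markers of 11 cell types were read beside them. Of 60 listed markers 56 were measured, and 4 passed (7.14%), 1 higher and 3 lower, beside 1.09% of all probe sets tested. Before adjustment 13 had a p under 0.05. No marker is at 0 on this scale, and a level is given for each list as the log2 of the summed linear values of its probe sets.

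The cardiomyocyte sum, for the cells that carry Kcnj11 with Abcc9, was 16.12 to 16.13 in Ppif-/- and 16.11 to 16.15 in WT hearts, with a median difference of -0.0098. Of its 7 markers 0 passed in limma and 1 had p under 0.05 before adjustment, the calcium release channel Ryr2 (-0.19 ± 0.06), with the ventricular light chain Myl2 next (0.07 ± 0.06). The smooth muscle sum was lower, at 11.77 to 11.87 in Ppif-/- and 11.91 to 12.14 in WT hearts, with a median difference of -0.48, 1 of 5 markers passing and 4 at an unadjusted p under 0.05. Of those 4, 3 had negative differences, Tagln, Myh11 and Cnn1 (-0.48 ± 0.14, adjusted p = 0.186 in limma). Smtn differed in the other direction (0.25 ± 0.10, adjusted p = 0.331). For Acta2, the brightest of the list (11.09 in Ppif-/- against 11.23 in WT hearts), the groups overlapped (-0.14 ± 0.09, adjusted p = 0.585). Cnn1, Smtn and Acta2 were picked once their values were known. Tagln, an actin-binding protein, read 8.09 to 8.12 against 8.50 to 8.76 (-0.51 ± 0.08, adjusted p = 0.0332 in limma), and Myh11, smooth muscle myosin, differed by -0.53 ± 0.11 (adjusted p = 0.0701). Myh11 passed among brighter probe sets (0.0417) and with the variance trend (0.0295). The call of Tagln was lost without any single heart (adjusted p = 0.0537 to 0.122), with the replicate block (0.0887) and with every probe set of the array (0.104). The pericyte sum was higher, at 12.54 to 12.64 against 12.39 to 12.48, with a median difference of 0.030, 0 of 8 markers passing in limma and 1 at an unadjusted p under 0.05. That marker was Rgs5, the brightest of the list (11.76 against 11.48, 0.27 ± 0.07, adjusted p = 0.129, or 0.0193 with the variance trend), and the proteoglycan Cspg4 stood at -0.16 ± 0.07. The mean log2 value over the 8 pericyte markers, which weights them equally, overlapped between the genotypes (8.62 to 8.78 against 8.62 to 8.69), while that of the smooth muscle markers did not (8.64 to 8.74 against 8.91 to 9.11). Kcnj8 is carried by both cell types, and the part of these cells in the subunit values was not tested.

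The atrial sum was 12.06 to 12.27 in Ppif-/- and 11.37 to 11.80 in WT hearts, with a median difference of 0.14, 0 of 6 markers passing in limma and 1 at an unadjusted p under 0.05. Nppa, a natriuretic peptide that also responds to load in the ventricle, was the brightest of these markers (0.68 ± 0.13, adjusted p = 0.0681), and the mean log2 value over the 6 was 6.46 to 6.67 against 6.33 to 6.40. It passed without WT heart 2 (adjusted p = 0.0138 in limma), among brighter probe sets (0.0428) and with an intensity trend in the variance (0.0243). The atrial light chain Myl7 was next at 5.12 against 4.92 (0.20 ± 0.10), and its groups overlapped. Myl7, Sln (4.70 against 4.62) and Bmp10 (4.65 against 4.59) lay below 6.05, the median of all probe set means. Dkk3 lay near that median (5.99 against 6.13) and Myl4 above it (6.91 against 6.54). Nppa alone read 12.17, 12.06 and 11.97 against 11.24, 11.70 and 11.23, close to the sum. The sum thus follows Nppa and does not measure the amount of atrial tissue. The part of atrial tissue in the Abcc8 values was not tested.

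Skeletal muscle, which also carries Kcnj11 with Abcc9, gave a sum of 8.43 to 8.63 against 8.88 to 8.95. Of its 6 markers, with a median difference of -0.010, 1 fell, the fast light chain Myl1, from 7.42 in WT to 5.98 in Ppif-/- hearts (-1.44 ± 0.10, adjusted p = 0.000555 in limma), and Myh4 stood at 0.14 ± 0.08. Myl1 read 6.09, 5.80 and 6.07 against 7.43, 7.50 and 7.34. Among the other markers the groups overlapped for Tnnt3 (-0.05), Tnni2 (-0.11), Pvalb (0.03) and Actn3 (0.07). Myh4, Pvalb and Actn3 lay below 6.05, the median of all probe set means, and Tnnt3 and Tnni2 lay above it. The lower sum thus rests mostly on Myl1, and the part of skeletal muscle in the Kcnj11 values was not tested.

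The fibroblast sum overlapped (13.14 to 13.22 against 13.19 to 13.21). Of its 5 markers, with a median difference of -0.034, 1 fell, the growth factor receptor Pdgfra at -0.44 ± 0.06 (adjusted p = 0.0246 in limma), and Col1a1 at 0.21 ± 0.11. The macrophage sum overlapped as well (10.03 to 10.11 against 10.06 to 10.07). Of its 5 markers, with a median of 0.12, 1 rose, the lysosomal protein Cd68 at 0.56 ± 0.09 (adjusted p = 0.0394 in limma), and Cd163 at -0.53 ± 0.12. The calls of Pdgfra and Cd68 were lost without any single heart (adjusted p = 0.0693 to 0.0991 and 0.0551 to 0.145), with the replicate block (0.0929 and 0.098) and with every probe set of the array (0.0727 and 0.124). In endothelium (5 measured markers), adipocytes (4), blood (2) and islet and nerve cells (3), 0 markers passed in limma, and 0, 0, 1 and 1 had an unadjusted p under 0.05. Their sums overlapped between the genotypes except for blood, at 7.903 to 8.06 in Ppif-/- and 7.53 to 7.899 in WT hearts. Taken singly, the groups overlapped for both measured blood markers, Alas2 (0.38 ± 0.14) and Slc4a1 (0.015 ± 0.070).

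**Figure D5:**
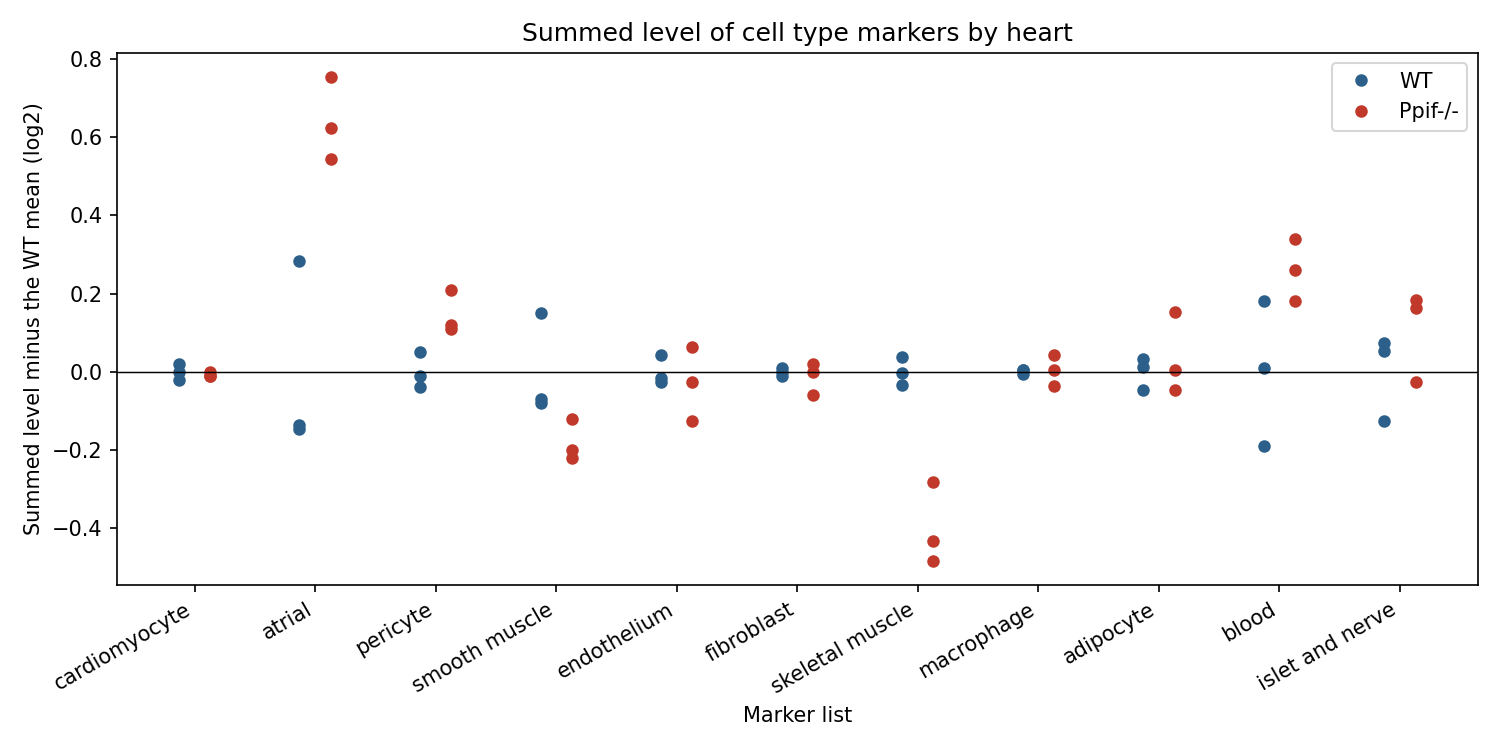
Summed level of each marker list in each heart, as log2 minus the mean of the WT hearts, with WT in blue and Ppif-/- in red. Cardiomyocyte sums overlap, and smooth muscle and skeletal muscle sums are lower in Ppif-/- hearts, the latter resting mostly on Myl1. Atrial and pericyte sums, in which Nppa and Rgs5 are the brightest markers, are higher.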

How the data were processed

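The authors deposited log2 values made with RMA, per the submitters' processing notes, and neither its version nor any filter is stated there. RMA shrinks differences of dim transcripts. Values of 6 arrays were used as deposited, 0 columns lacked a sample, no array pair held identical values, and no scan dates or batches were given. Symbols came from the platform annotation, updated by Entrez identifier to the GRCm38.p6 gene table, which also gave gene order.

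Genotypes were compared with lmFit and eBayes of limma 3.58.1 under R 4.3.3 (two-sided, no covariates, Benjamini-Hochberg adjustment, threshold 0.05) on 23410 probe sets with a symbol. The procedure was run on simulated data with independent noise in each probe set. Such data lack variation shared by many genes of a heart, so false calls from that source were not gauged. Listed genes were represented by the brightest probe set with 1 symbol; 159 of 173 listed genes were measured, and the others were not analysed here. The text names every subunit, list members past the threshold (at most 4) or the 2 with the smallest p, the neighbours past the threshold or the 1 with the smallest p, and the 5 nearest profiles; genes outside this rule are marked as picked once their values were known. Subunits and lists were chosen with earlier results of these data known. Alternatives were a replicate block, a filter on dim probe sets, a fit of every probe set, a fit of probe sets with 1 symbol, quantile normalisation, centring on array medians, a variance trend, the probe set with the smallest p of each gene, and leaving out each heart.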

Additional observations from a re-analysis of the deposited data

How the results depend on the processing

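In 13 alternative fits Kcnj11 was the 1 subunit past the threshold, with a difference of -0.78 to -0.73. These fits reuse the arrays on which the family was selected, so they describe the processing and give no separate support. Without each heart in turn the differences were -0.78 to -0.73 for Kcnj11, -0.054 to 0.067 for Kcnj8, 0.045 to 0.20 for Abcc8 and -0.17 to -0.083 for Abcc9. Kcnj8 kept its sign in 10 of the 13 fits, and the others in all 13. The replicate numbers did not pair the hearts: deviations of equally numbered hearts from their genotype means correlated at -0.0020, -0.050 and 0.082. With the replicate block, 160 probe sets passed in place of 254, with 1 pathway gene and 1 cell type marker. On the brighter probe sets 403 passed, with 1 pathway gene, 6 markers and 2 neighbours of Kcnj11 and Abcc8. Kcna4, whose mean over the 6 hearts lay below the median of all probe sets, was not in that fit. With every probe set of the array in the fit, 131 passed, with 0 pathway genes, 1 marker and 0 of those neighbours. With a variance trend 453 passed, with 8 markers and 3 neighbours. Leaving out each heart gave 131 to 171 probe sets, 0 to 1 pathway genes, 1 to 2 markers and 0 to 1 neighbours of Kcnj11 and Abcc8. Apart from the removal of Kcna4 with the dim probe sets, the cause of these shifts was not tested. The calls of Cdh19 and of D730005E14Rik were also lost with every probe set of the array (adjusted p = 0.0511 and 0.0648 in limma), the former with the block (0.0541) and the latter without the second Ppif-/- heart or either of WT hearts 1 and 2 (0.0587 to 0.069). No detection calls were given, so what signal over background limits could not be measured.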

Other observations

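Kcnj11 was not the only potassium channel gene called lower. Outside the lists, Kcna2 (-0.48 ± 0.07 log2, adjusted p = 0.0263 in limma) and Kcnt2 (-0.59 ± 0.10, adjusted p = 0.0413) were also called lower. Both were picked once their values were known. The listed repolarising channels described below, also chosen after their values were seen, showed no call in limma, and WT heart 2 stood apart in some of them. This was not particular to channels, as WT heart 2 also stood apart in some genes of other lists. Examples are Col3a1 (8.98 against 9.78 and 9.85 in the other WT hearts) and Camk2d (10.29 against 10.70 and 10.69). Kcnd2, the pore of the fast transient outward current, read 8.99, 9.26 and 9.11 in Ppif-/- hearts and 9.77, 9.20 and 9.63 in WT hearts (-0.41 ± 0.15 log2, adjusted p = 0.29 in limma). The overlap of its groups rests on WT heart 2 alone. Kcnq1 read 8.90, 9.18 and 9.16 against 8.85, 8.29 and 8.74, again with WT heart 2 the lowest. Kcna5, a pore of the ultrarapid delayed rectifier, read 8.02, 7.88 and 7.98 against 7.45, 7.76 and 7.83 (0.28 ± 0.11, adjusted p = 0.329), and there WT heart 1 was the lowest. Kcnj2, the main classical inward rectifier of the ventricle, read 8.85, 9.00 and 8.76 against 9.18, 8.97 and 9.01, with overlapping groups (-0.18 ± 0.09, adjusted p = 0.44).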
